A study of Homo sapiens with 4 samples.

Results

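FOXK2 peaks assigned to the integrin, laminin and collagen genes were examined in ChIP-seq of OVCAR5, an established human ovarian cancer cell line. A peak was a member when the deposited annotation, which names the gene with the nearest transcription start site (TSS), gave it an integrin alpha or beta subunit symbol, a laminin chain symbol or a collagen alpha chain symbol, whatever the peak's score. This gave 54 of 12471 peaks in replicate 1 and 108 of 27281 peaks in replicate 2. Integrins had 27 and 41 of these peaks in the respective lists, laminins 7 and 21, and collagens 20 and 46. The symbol pattern also took in 2 replicate 2 peaks of ITGA9-AS1, an antisense transcript, which stayed among the integrin peaks and out of the gene counts. RefSeq lists 26 integrin, 12 laminin and 44 collagen genes among 20052 protein-coding genes. These numbers are the denominators of gene shares, except where another number of all genes is given.

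FOXK2 occupancy was mapped in biological duplicates, and the labels name no treatment, transgene or knockdown for these cells. Both peak lists therefore belong to 1 condition, so families and genes were compared within each list, and no test between conditions was possible. The peak score was taken as the number of sequenced tags in a peak scaled to its library, so it was read only as a rank or a percentile within its own list (100 is the strongest peak). Peaks reached down to 16 tags in replicate 1 and to 21 in replicate 2. The scaling of the score is not stated, and the total read depth was not derived from it. Input libraries and expression data were not analysed here, and an assigned peak shows occupancy near a gene, not a change in its expression.

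Integrins are cell surface receptors made of an alpha and a beta subunit, and they attach cells to the extracellular matrix and signal through adaptors and kinases. Laminins are trimers of an alpha, a beta and a gamma chain and, with type IV collagen, form basement membranes, while the fibril-forming collagens make up the interstitial matrix. Ovarian cancer cells meet both kinds of matrix when they spread over the peritoneum. FOXK2 is a forkhead transcription factor, and TGTTTAC is the core of the forkhead site.

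The DNA under a selection of peaks found in both lists is shown first. All windows but that of ITGB8 were chosen for holding TGTTTAC. Of 33 overlapping pairs in the 3 families, 13 held it within 100 bp of the replicate 2 centre. Each line gives the plus strand of hg38, 50 bp to each side of a replicate 2 peak centre, with the forkhead heptamer in capitals (TGTTTAC, which reads as its reverse complement where it lies on the minus strand). The ITGB1 windows, chr10:33010390-33010490 between genes and chr10:32946258-32946358 in intron 1, held it 2 bp and 4 bp from the centre. All 3 recurrent ITGB5 peaks held it, at chr3:124886646-124886746 in a CpG island of an intron, chr3:124878910-124879010 in intron 1 and chr3:124835053-124835153 in intron 5. Further examples were an ITGB4 peak at chr17:75707246-75707346 in the last exon of a noncoding transcript within SAP30BP, a COL3A1 peak between genes at chr2:188903124-188903224, and a LAMB4 peak in intron 10 at chr7:108100476-108100576. The window of ITGB8, chr7:20329768-20329868, is shown for contrast: it was strong in both lists and held no heptamer within 100 bp of the centre.
ITGB1, 52 kb upstream: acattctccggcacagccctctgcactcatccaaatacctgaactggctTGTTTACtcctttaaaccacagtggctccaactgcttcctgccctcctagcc
ITGB1, intron 1: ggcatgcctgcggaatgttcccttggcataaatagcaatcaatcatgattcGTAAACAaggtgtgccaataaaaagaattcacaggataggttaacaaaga
ITGB5, CpG island: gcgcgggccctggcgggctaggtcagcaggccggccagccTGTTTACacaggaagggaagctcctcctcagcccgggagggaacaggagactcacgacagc
ITGB5, intron 1: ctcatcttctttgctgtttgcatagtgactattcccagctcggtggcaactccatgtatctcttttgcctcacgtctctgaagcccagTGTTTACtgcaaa
ITGB5, intron 5: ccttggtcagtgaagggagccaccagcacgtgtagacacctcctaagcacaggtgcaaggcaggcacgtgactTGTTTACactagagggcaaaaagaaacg
ITGB4, upstream: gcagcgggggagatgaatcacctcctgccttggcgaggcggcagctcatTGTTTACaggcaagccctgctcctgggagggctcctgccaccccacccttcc
COL3A1, upstream: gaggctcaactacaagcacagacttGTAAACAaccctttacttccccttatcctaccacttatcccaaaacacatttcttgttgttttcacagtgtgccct
LAMB4, intron 10: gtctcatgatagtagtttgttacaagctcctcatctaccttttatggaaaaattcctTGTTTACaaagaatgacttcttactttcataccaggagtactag
ITGB8, upstream: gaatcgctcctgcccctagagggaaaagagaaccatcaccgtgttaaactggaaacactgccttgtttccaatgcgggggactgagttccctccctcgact

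By nearest TSS, sites found in both replicates were assigned to a larger share of integrin than of collagen genes. Overlapping peaks of both replicates (at least 1 bp shared) were assigned to 11 of 26 integrin genes (42.3%, Wilson 95% interval 25.5% to 61.1%), 3 of 12 laminin genes (25%, 8.89% to 53.2%) and 5 of 44 collagen genes (11.4%, 4.95% to 23.98%), against 25.5% of all protein-coding genes. The integrin and collagen intervals did not overlap, and the collagen interval lay below the value of all genes, while the laminin interval included that value and overlapped both other families. Without the demand for overlap, 11 integrin genes (42.3%), 5 laminin genes (41.7%) and 7 collagen genes (15.9%) had a peak in both lists, against 28.6% of all genes. In the replicate 1 list the counts were 13, 5 and 10 genes (50%, 41.7% and 22.7%, against 31.3%), and in the replicate 2 list 15, 11 and 23 genes (57.7%, 91.7% and 52.3%, against 51.7%). Peaks in replicate 2 only were assigned to 4 integrin (15.4%, 6.15% to 33.5%), 6 laminin (50%, 25.4% to 74.6%) and 16 collagen genes (36.4%, 23.8% to 51.1%), against 23.1% of all genes. These intervals cover counting error only, and neighbouring genes of a family are not independent.

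**Figure D1:**
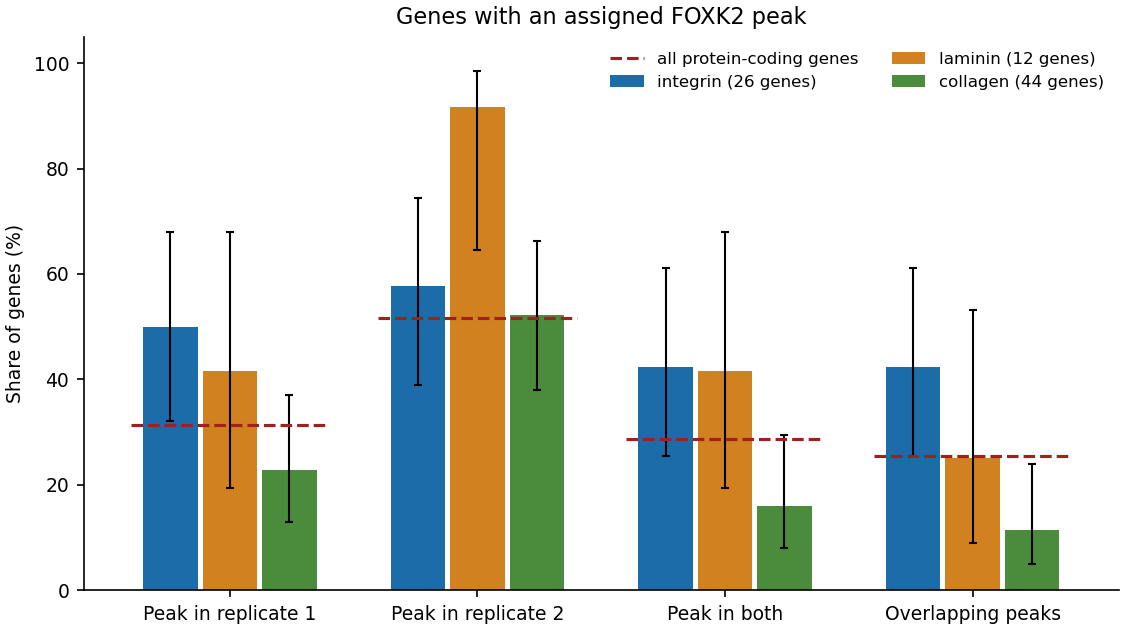
Share of integrin, laminin and collagen genes (%, y axis) with an assigned FOXK2 peak in replicate 1, in replicate 2, in both, or with overlapping peaks of both replicates. Bars are shares, error bars Wilson 95% intervals, and dashed lines the share of all protein-coding genes. Integrins had the highest share with overlapping peaks (42.3%) and collagens the lowest (11.4%), while laminins reached 91.7% in replicate 2.

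This order depended on how peaks were assigned to genes. Assignment to the nearest TSS gives a peak inside a long gene to another transcript that starts nearer, and it also credits a gene with peaks far upstream of it. When genes were instead credited with every peak whose centre lay in the GENCODE gene span or up to 10000 bp upstream of it, 9 integrin genes (34.6%, 19.4% to 53.8%), 7 laminin genes (58.3%, 32.0% to 80.7%) and 14 collagen genes (31.8%, 20% to 46.6%) had a peak in both replicates, against 32.3% of all genes. Peaks that overlapped between replicates were then found for 9 integrin (34.6%), 6 laminin (50%) and 11 collagen genes (25%, 14.6% to 39.4%), against 29.1% of all genes. All genes were here the 20007 protein-coding genes of GENCODE. By gene body, every family interval included the value of all genes, so the low collagen share was found with nearest TSS assignment and not with this one. Of the changes this assignment made, 2 were then made singly, a step chosen after the data were seen. A further change was not made singly: peaks up to 10000 bp upstream that carry another symbol were credited, as for COL11A2 in both lists. All genes numbered 19134 in these single steps. With peaks inside the gene span added to the assigned ones, overlapping peaks were found for 13 integrin (50%, 32.1% to 67.9%), 6 laminin (50%, 25.4% to 74.6%) and 11 collagen genes (25%, 14.6% to 39.4%), against 30.6% of all genes, and a peak in both lists for 13, 8 and 13 genes, against 34.4%. With assigned peaks kept only inside the span or up to 10000 bp upstream, overlapping peaks were found for 7 integrin (26.9%, 13.7% to 46.1%), 3 laminin (25%, 8.89% to 53.2%) and 3 collagen genes (6.82%, 2.35% to 18.2%), against 21.0% of all genes, and a peak in both lists for 7, 4 and 5 genes, against 23.2%. For overlapping peaks, the collagen interval therefore included the value of all genes once span peaks were added and lay below it when only distant peaks were dropped, while the integrin interval lay above that value in the first case and included it in the second. Gene length differed as well: the median span was 76.0 kb for integrins, 96.1 kb for laminins and 145 kb for collagens, against 27.5 kb for all genes. Per 100 kb of gene span, integrins held 0.669 peaks in replicate 1 and 1.52 in replicate 2, laminins 0.616 and 1.34, and collagens 0.344 and 0.927, against 0.531 and 1.15 over all genes. Counted by assigned peaks instead, integrins had 1.20 and 1.74 per 100 kb, laminins 0.392 and 1.18, and collagens 0.299 and 0.688.

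By median, integrin peaks ranked higher in their lists than laminin and collagen peaks. The median score percentile of integrin peaks was 67.1 in replicate 1 and 70.3 in replicate 2, that of laminin peaks 32.7 and 31.9, and that of collagen peaks 24.4 and 31.9, beside 50.7 and 50.7 for all peaks. The median replicate 1 peak held 38 tags in integrins, 26 in laminins and 24 in collagens, in a list that reached down to 16 tags. Of the 27 integrin peaks in replicate 1, 21 overlapped a replicate 2 peak (77.8%, 59.2% to 89.4%), against 4 of 7 laminin peaks (57.1%, 25% to 84.2%), 8 of 20 collagen peaks (40.0%, 21.9% to 61.3%) and 74.9% of all peaks. Of the replicate 2 peaks, 21 of 41 integrin (51.2%, 36.5% to 65.7%), 4 of 21 laminin (19.0%, 7.67% to 40.0%) and 8 of 46 collagen peaks (17.4%, 9.09% to 30.7%) overlapped a replicate 1 peak, against 34.2% of all peaks. The collagen interval lay below the value of all peaks in both lists, while the integrin interval included it in replicate 1 and lay above it in replicate 2. These shares cover peaks assigned to a family symbol and treat peaks of the same gene as independent. Among peaks inside collagen genes that carried another symbol, 9 of 10 in replicate 1 and 9 of 35 in replicate 2 overlapped. In lists of equal length the collagen share was 20% of 20 peaks in replicate 1 (8.07% to 41.6%, against 60.0% of all peaks) and 36.4% of 11 peaks in replicate 2 (15.2% to 64.6%, against 60.0%). Among peaks above the median score of each list it was 75% of 4 peaks (30.1% to 95.4%, against 88.7%) and 23.1% of 13 peaks (8.18% to 50.3%, against 40.5%). Of these 4 collagen intervals, only that of replicate 1 in lists of equal length lay below the value of all peaks. The replicate 2 integrin share was 71.4% of 28 peaks in lists of equal length (52.9% to 84.7%), an interval that included the value of all peaks. Above the median score it was 69.0% of 29 peaks (50.8% to 82.7%), above the 40.5% of all peaks. In lists of equal length, the cut left 0 laminin peaks in replicate 2. The 0 of 7 overlapping laminin peaks of replicate 1 were therefore fixed by that cut and are not set against all peaks. In replicate 1, the 6 integrin peaks without a partner had a median percentile of 14.7, and the strongest of them, an ITGAV peak, reached 47.5. The 20 such integrin peaks of replicate 2 had a median of 47.7 and reached 78.2 (ITGA1). Replicate 1 peaks without a partner reached 81.1 in laminins (LAMA5) and 69.0 in collagens (COL28A1).

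**Figure D2:**
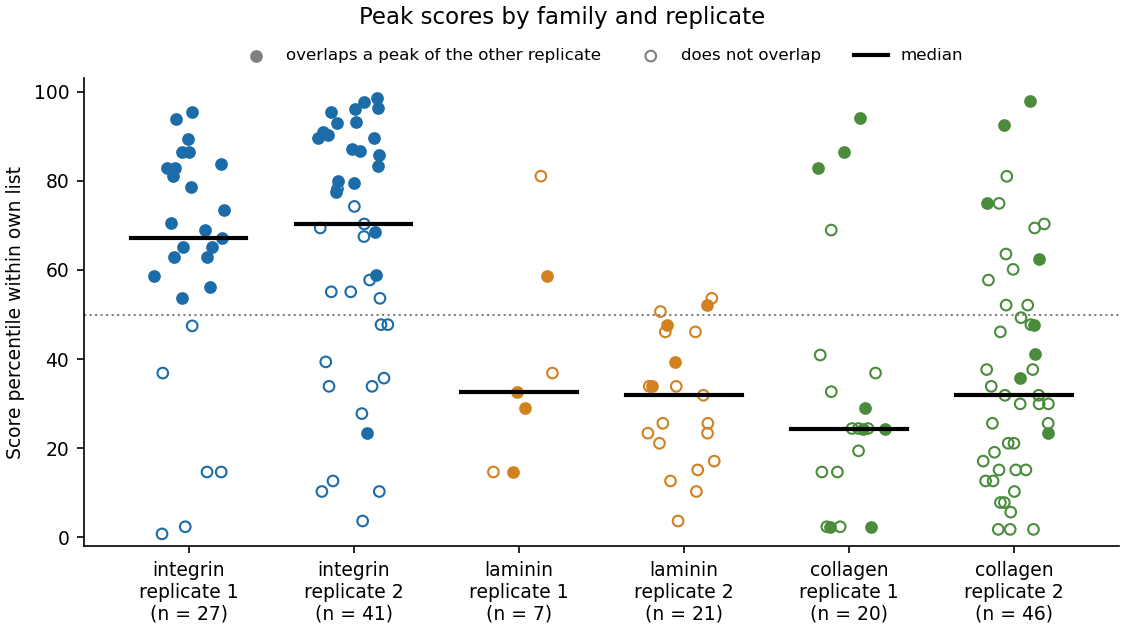
Score percentile of each member peak within its own list (y axis, 0 to 100) by family and replicate. Filled points overlap a peak of the other replicate, open points do not, black bars are medians, and the dotted line marks the middle of the list. Integrin medians lie at 67.1 and 70.3, while laminin and collagen medians lie between 24.4 and 32.7.

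The 33 overlapping pairs comprised 21 of integrins, 4 of laminins and 8 of collagens, and every pair was assigned to the same gene in both lists. The centres of a pair lay a median of 30 bp apart. In 10 integrin, 0 laminin and 2 collagen pairs the score was above percentile 75 in both lists, and both collagen pairs belonged to COL14A1. The best pairs of the families, by mean percentile, were those of ITGB8, ITGB1, ITGAV, ITGA2, ITGB5 and ITGB4 among integrins. Pairs were found for 3 laminin genes, LAMB4 and LAMB2 among them, and for 5 collagen genes (COL14A1, COL3A1, COL13A1, COL21A1, COL5A2).

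**Figure D3:**
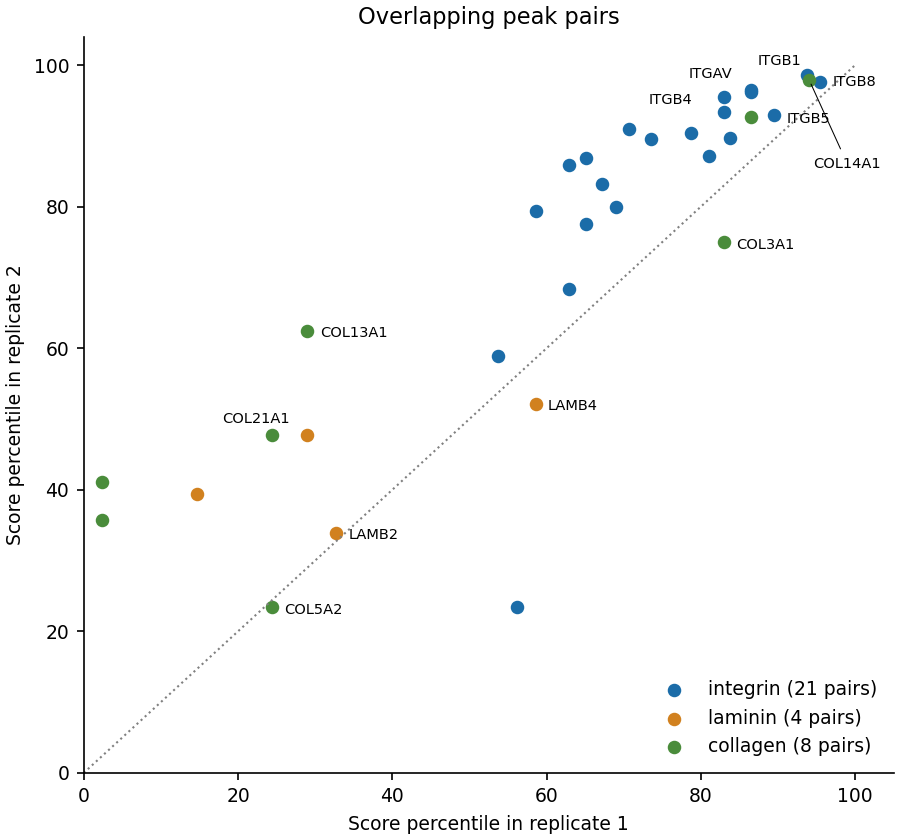
Score percentile of each overlapping pair in replicate 1 (x axis) and replicate 2 (y axis), coloured by family, with the best pair of selected genes labelled and the diagonal dotted. Most integrin pairs sit in the upper right, while the 4 laminin pairs sit below percentile 60 in both lists.

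Among the integrins, overlapping peaks were found for most beta subunit genes. Each of the 8 beta genes had a peak in at least 1 list (lower interval bound 67.6%, against 54.4% of all genes), and 6 of 8 had overlapping peaks (75%, 40.9% to 92.9%, against 25.5% of all genes). ITGB1 encodes the beta subunit shared by most matrix-binding integrins, and it had 5 overlapping pairs, the most of any gene in the 3 families. Its strongest site lay 52062 bp upstream by the deposited distance and 4635 bp before the start of the longer GENCODE gene span, with a score of 13.8 (rank 776, percentile 93.8) in replicate 1 and 34.5 (rank 387, percentile 98.6) in replicate 2. The other ITGB1 pairs lay 10803, 27800, 156409 and 171451 bp upstream by the deposited distances, with replicate 1 percentiles of 58.6, 78.7, 56.1 and 62.9. In replicate 2 these sites had percentiles of 79.4, 90.4, 23.4 and 68.4, so the site at 156409 bp was the weakest of the 5 there. The GENCODE span of ITGB1 held the sites at 10803 and 27800 bp, so these lay inside the gene although the deposited distance placed them upstream.

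ITGB8, the beta partner of the alpha V subunit in a receptor that activates latent TGF-beta, had the best pair of all 3 families. Its peak scored 15.3 (rank 566, percentile 95.5) in replicate 1 and 28.1 (rank 638, percentile 97.7) in replicate 2, 1267 bp upstream of the TSS in an intron of a noncoding transcript. It was the only integrin gene whose best pair lay within 2000 bp of the TSS. ITGB5, another partner of alpha V, had pairs 577, 8349 and 52169 bp downstream of the TSS. Their scores were 7.92, 11.3 and 9.05 in replicate 1 and 15.9, 18.6 and 14.6 in replicate 2, which placed them at percentiles 73.5, 89.5 and 81.1 in the first list and 89.5, 93.0 and 87.1 in the second. ITGB4 pairs with alpha 6 in the laminin receptor of hemidesmosomes. Its 3 pairs lay 24087, 20560 and 13984 bp upstream, all inside the neighbouring gene SAP30BP, with scores of 9.43, 7.55 and 6.79 in replicate 1 and 21.7, 17 and 14 in replicate 2. The order of the 3 ITGB4 sites was the same in both lists.

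ITGB6, the epithelial partner of alpha V, had pairs 18975 bp downstream (percentiles 67.1 and 83.2) and 23923 bp upstream (69.0 and 80.0). ITGB3 had 1 pair in intron 2 (53.7 and 58.9). The remaining beta genes were weak: the leukocyte subunit ITGB2 had 2 peaks in replicate 1 only, at percentiles 0.754 and 2.36, and ITGB7 had 1 in replicate 2 only, at percentile 12.6.

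Of the 18 alpha subunit genes, 5 had overlapping peaks (27.8%, 12.5% to 50.9%), near the 25.5% of all genes, and this interval overlapped that of the beta genes. ITGAV, the alpha V subunit, had 2 pairs upstream. One scored 10.4 and 23.9 (percentiles 86.5 and 96.5) and the other 6.98 and 11.3 (65.1 and 77.6), so the same site was the stronger in both lists. ITGA2, the alpha subunit of a collagen receptor, had a pair 66822 bp upstream that lies in intron 17 of the adjacent ITGA1 gene, with scores of 10.4 and 23.2 (percentiles 86.5 and 96.2). ITGA6 and ITGA3, both alpha subunits of laminin receptors, each had a pair in intron 1, 14677 bp and 6639 bp from the TSS. The ITGA6 pair scored 9.43 and 18.9, and the ITGA3 pair 9.62 and 16.1, so both ranked above percentile 80 in each list. A further ITGA6 peak at the promoter, 82 bp upstream of the TSS, was found in replicate 2 only (score 9.67, percentile 69.4).

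By role, overlapping peaks were assigned to 1 of 4 collagen-binding alpha genes, 2 of 3 laminin-binding, 1 of 4 RGD-binding, and 1 of 7 leukocyte and other alpha genes, the last being ITGAE. The intervals of these small groups overlapped each other and that of the beta genes, and each included the 25.5% of all genes. The 9 integrin genes with no assigned peak in either list were all alpha subunits: ITGA2B, ITGA5, ITGA7, ITGA9, ITGA10, ITGAD, ITGAL, ITGAM and ITGAX. Within the span of ITGA10, however, a site found in both lists was assigned to ANKRD35 (percentiles 60.8 and 77.6), and in replicate 2 the span of ITGA9 held 2 peaks and that of ITGA7 held 1. The 9 genes include ITGA5, the fibronectin receptor subunit, whose nearest peaks lay 60184 bp (replicate 1) and 20480 bp (replicate 2) from its start.

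**Figure D4:**
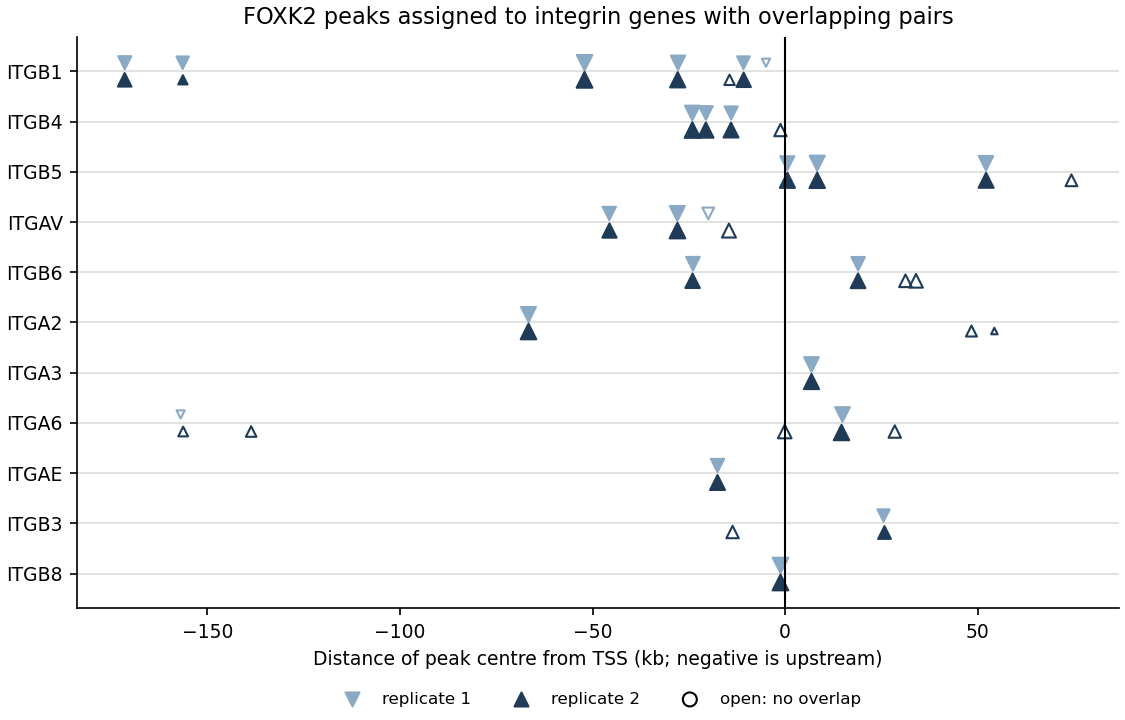
Distance of each peak centre from the assigned TSS (x axis, kb, negative is upstream) for the 11 integrin genes with overlapping pairs (y axis). Downward triangles are replicate 1 and upward triangles replicate 2, filled where the peak overlaps a peak of the other replicate, with size rising with score percentile. By these deposited distances ITGB1 has 5 pairs at negative values, 2 of them inside its GENCODE span, and ITGB5 has 3 at positive values.

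By nearest TSS, all 5 laminin alpha chain genes had a peak in replicate 2 (against 51.7% of all genes), 1 of 5 (LAMA5) had a peak in replicate 1, and none had overlapping peaks (upper interval bound 43.4%, against 25.5% of all genes). Inside the gene spans, however, sites found in both lists lay in LAMA1 (intron 32; percentiles 40.9 and 52.1), LAMA2 (intron 55; 5.38 and 53.6) and LAMA4 (intron 2; 32.7 and 72.8), assigned to LOC101927188, ARHGAP18 and LOC101927640. LAMA5, the widely expressed epithelial alpha chain, had a peak in intron 2 in replicate 1 (score 9.05, percentile 81.1) and a different peak 7206 bp upstream in replicate 2 (score 7.58, percentile 53.6). Intron 6 of LAMA5 held a stronger replicate 2 peak, assigned to LAMA5-AS1 (score 9.96, percentile 71.3), that no replicate 1 peak overlapped. LAMA3, an alpha chain of epithelial basement membranes, had 1 replicate 2 peak at percentile 17.1. LAMB3, a beta chain of the same tissues, was the only laminin gene with no peak in either list.

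LAMB4 had 2 pairs, 50570 bp and 29763 bp downstream of the TSS, at percentiles 58.6 and 52.1, and 14.7 and 39.4. LAMB2 had the only laminin pair at a promoter, 643 bp and 540 bp upstream in the respective lists, at percentiles 32.7 and 33.9. LAMB1 and LAMC1 encode the common beta 1 and gamma 1 chains. LAMB1 had 2 peaks in replicate 1 and 5 in replicate 2 without any overlap, and both replicate 1 peaks lay inside LAMB4. LAMC1 had 3 peaks in replicate 2 only, the strongest in exon 1 at percentile 50.7.

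Among collagens, the strongest peaks belonged to COL14A1, a fibril-associated collagen. Its pair 40402 bp upstream scored 14 (percentile 94.1) and 28.9 (97.8), and its pair 141207 bp downstream scored 10.4 (86.5) and 18.3 (92.6). Both sites lay inside the longer GENCODE span of the gene. COL14A1 lies on chromosome 8, where peak scores were raised in both lists: the median percentile was 76.3 over 553 peaks in replicate 1 and 74.9 over 1126 peaks in replicate 2. The part of this in the COL14A1 scores was not tested. COL3A1, a fibril-forming chain of the interstitial matrix, had a pair 71177 bp upstream at percentiles 82.9 and 74.9. COL21A1 had the most collagen peaks, 6 in replicate 1 and 8 in replicate 2, but its 3 pairs reached at most percentile 24.4 in replicate 1 and 47.7 in replicate 2. COL13A1 had a pair in intron 3 at percentiles 29.0 and 62.5, and COL5A2 had a pair 108090 bp upstream at 24.4 and 23.4.

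By role, overlapping peaks were assigned to 2 of 11 fibril-forming chains, 0 of 6 basement membrane chains, 2 of 10 fibril-associated chains, 1 of 4 transmembrane chains and 0 of 5 beaded filament chains. The interval of each of these groups included the 25.5% of all genes. COL1A1, COL17A1 and COL18A1 had no assigned peak in either list, and COL1A2 had 1 replicate 2 peak at percentile 12.6. In all, 18 collagen genes (40.9%, 27.7% to 55.6%), 9 integrin genes (34.6%, 19.4% to 53.8%) and 1 laminin gene (8.33%, 1.49% to 35.4%) had none, against 45.6% of all genes. The laminin interval lay below that value, and the other two included it.

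Several peaks inside the basement membrane collagen genes were assigned to other transcripts. COL4A2 had 0 assigned peaks, yet 3 replicate 1 peaks and 5 replicate 2 peaks lay inside its span, assigned to the antisense transcripts COL4A2-AS1 and COL4A2-AS2 and to MIR8073. A COL4A2 site in intron 3 was found in both lists, at percentile 44.2 in replicate 1 and 83.6 in replicate 2, as was a site in intron 46 at 40.9 and 68.4. COL4A1 had 1 assigned peak, in replicate 1 at percentile 32.7, and held a further site in intron 49 at percentiles 60.8 and 84.8, assigned to LOC105370361. COL4A1 and COL4A2 start 1345 bp apart in opposite directions, and the nearest peak lay 40635 bp from the COL4A1 start and 41918 bp from the COL4A2 start in replicate 1, and 20095 bp and 21440 bp in replicate 2, so no peak was found at their shared promoter. In replicate 2 only, COL4A3 had 2 peaks, the stronger at percentile 69.4, and COL4A4 had 1 at 15.1. COL4A5 had 1 replicate 2 peak at percentile 1.76, and COL4A6 had none.

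Over all peaks inside a family gene that carried another symbol, those already described included, the median percentile in the respective lists was 86.5 (3 peaks) and 37.6 for integrin spans, 19.4 and 41.0 for laminin spans, and 40.9 and 46.1 for collagen spans. Among examples chosen after their values were seen, intron 1 of COL3A1 held a pair assigned to MIR1245A at percentiles 94.1 and 92.5, above the COL3A1 pair named earlier, and ITGB3 held a pair assigned to THCAT158 at percentiles 96.1 and 96.1. COL27A1 held 2 pairs assigned to MIR455, at percentiles 40.9 and 91.9, and 29.0 and 69.4. Over all peaks, 74.9% in replicate 1 and 34.2% in replicate 2 overlapped a peak of the other list. In total, collagen spans held 10 replicate 1 peaks and 35 replicate 2 peaks with another symbol, 9 of them overlapping in each list. Integrin spans held 3 and 11 such peaks and laminin spans 7 and 10, with 3 overlapping in each list for either family. Some of these carried another symbol of the same family (ITGA9-AS1 included) and were also among the member peaks: 1 and 3 in integrin spans, 2 and 0 in laminin spans, and 0 and 1 in collagen spans.

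Integrin peaks were annotated to promoters less often than the peaks of their lists. Of the integrin peaks 0 of 27 in replicate 1 and 1 of 41 in replicate 2 were annotated to a promoter, against 21.7% and 18.0% of all peaks. Laminins had 1 and 2 promoter peaks (14.3% and 9.52%) and collagens 1 and 0 (5% and 0%). The upper interval bounds were 12.5% and 12.6% for integrins, below the values of all peaks in both lists. They were 51.3% and 28.9% for laminins, which includes those values, and 23.6% and 7.71% for collagens, which includes the value of replicate 1 and not that of replicate 2. Intervals of peak shares in this paragraph treat peaks as independent, although ITGB1 alone had 6 in each list. Peaks more than 10000 bp from the TSS made up 74.1% and 82.9% of integrin peaks, 71.4% and 71.4% of laminin peaks and 85.0% and 89.1% of collagen peaks, beside 57.1% and 62.1% of all peaks. These intervals lay above the value of all peaks for collagens in both lists and for integrins in replicate 2, and included it for laminins in both lists and for integrins in replicate 1. The median distance was largest for collagens (40169 and 65760 bp), followed in replicate 1 by laminins (31457 bp) and in replicate 2 by integrins (25587 bp), beside 16140 and 20161 bp for all peaks. By GENCODE spans, 12 of 27 and 23 of 41 integrin peaks lay in their assigned gene, 4 of 7 and 14 of 21 laminin peaks, and 13 of 20 and 27 of 46 collagen peaks. The 2 ITGA9-AS1 peaks lay inside ITGA9 but had no span of their own symbol, so they were not counted as inside. No share over all peaks was at hand, so these counts are not read as high or low.

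The forkhead heptamer was frequent in these peaks, and no family differed detectably from its list. TGTTTAC on either strand within 100 bp of the centre was found in 9 of 27 and 15 of 41 integrin peaks (33.3% and 36.6%), 2 of 7 and 5 of 21 laminin peaks (28.6% and 23.8%), and 9 of 20 and 13 of 46 collagen peaks (45% and 28.3%), against 30.5% and 28.2% of all peaks. Every family interval included the value of its list. Windows 2000 bp to each side held it in 0% to 4.76% of cases. Among the 21 integrin pairs, 9 held it within 100 bp of the replicate 2 centre, 3 of them in ITGB5 and 3 in ITGB1. The AP-1 site TGACTCA, also searched on both strands, was found in 8 of 27 and 10 of 41 integrin peaks (29.6% and 24.4%), 0 of 7 and 3 of 21 laminin peaks, and 5 of 20 and 6 of 46 collagen peaks (25% and 13.0%), against 16.4% and 16.6% of all peaks. The integrin interval in replicate 1, 15.9% to 48.5%, included the value of all peaks. ITGA2 and ITGA6 were among the integrins whose pairs held the AP-1 site and no forkhead heptamer. In the RefSeq promoters of GRCh38 (250 bases before to 50 after the start) that could be matched, TGTTTAC was found in 0 of 58 family genes (interval 0% to 6.21%) and in 3.75% of 15842 protein-coding genes, a share that the interval includes.

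**Figure D5:**
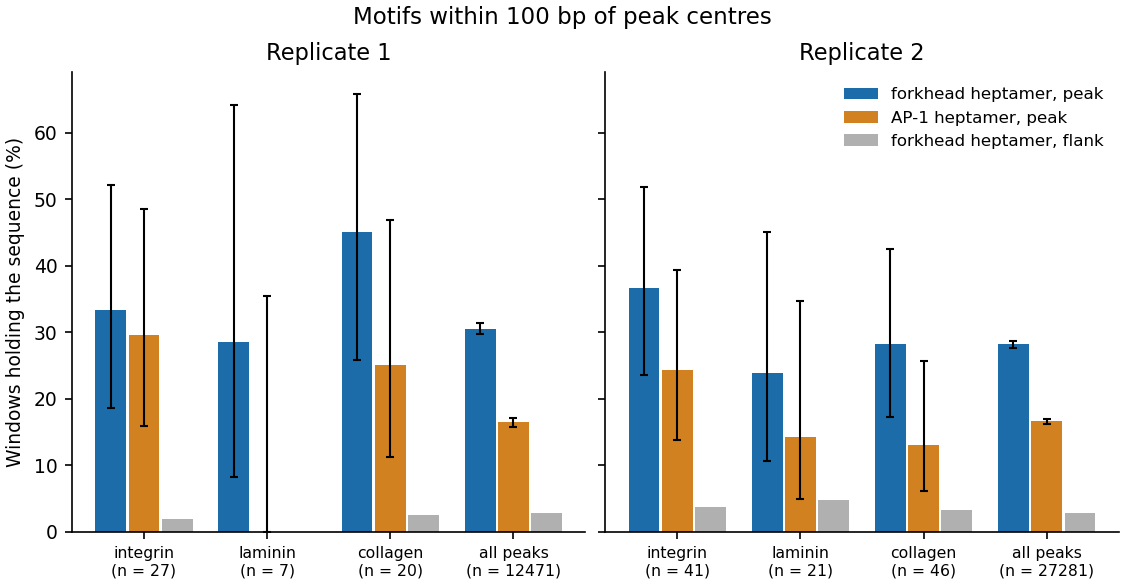
Share of 201 bp windows (%, y axis) that hold the forkhead heptamer or the AP-1 heptamer at member peaks and at all peaks, and the forkhead heptamer in flanking windows 2000 bp away, for each replicate. Error bars are Wilson 95% intervals. The forkhead shares of the families lie between 23.8% and 45% and their intervals include the shares of all peaks.

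A list of 44 other genes of cell adhesion to matrix was examined in the same way. Overlapping peaks were assigned to 13 of them (29.5%, 18.2% to 44.2%), near the 25.5% of all genes. Of the adaptors and kinases that act below integrins, 5 of 9 had overlapping peaks (55.6%, 26.7% to 81.1%). With the percentiles of each gene's best peak in the respective lists, these were PTK2 (focal adhesion kinase; 87.3 and 89.3), TLN2 (a talin; 32.7 and 90.4), VCL (vinculin; 56.1 and 72.1), PXN (paxillin; 29.0 and 67.5) and FERMT1 (a kindlin; 29.0 and 39.4). Other matrix receptors had 0 of 8 (0% to 32.4%), an interval that overlapped that of the adaptors and kinases. It included the value of all genes, as did the intervals of the groups that follow. Of the matrix proteins 3 of 8 had overlapping peaks, with TNC (tenascin C) highest at 70.6 and 86.5. Collagen processing enzymes had 2 of 12, PLOD2 (a lysyl hydroxylase; 36.9 and 56.5) and P4HA1 (a prolyl hydroxylase; 32.7 and 49.3). Matrix proteases and inhibitors had 3 of 7, all inhibitors, and TIMP3, with 3 pairs, reached percentiles of 98.3 and 99.3 at a site 100384 bp upstream, above every integrin, laminin and collagen peak in its list.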

How the data were processed

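OVCAR5 reads were mapped by the authors to hg38 with Bowtie2 2.2.6, and peaks were identified with HOMER 4.10. An annotated peak list was available for each replicate. The deposited peak score was read as a tag count scaled to the library. To their printed digits, the scores of member peaks matched whole multiples of 0.189 in replicate 1 and 0.149 in replicate 2. A deposited fraction, which HOMER computes from the placement of tags around the peak centre, was not used for any comparison. Both lists were used without a further threshold. Peak spans were 210 bp and 256 bp.

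Members and gene lists were chosen with earlier results of these data known. Named genes were those with the best overlapping pairs or the most pairs in a family (fewer laminin and collagen genes qualified than the rule allowed), genes of fixed roles, and genes with no peak. The other peaks named inside family genes were chosen after their values were seen. Symbols were joined to RefSeq by Entrez ID, which 8341 of 8359 genes of replicate 1 and 13851 of 13887 genes of replicate 2 matched. GENCODE release 44 gave gene spans. Shares carry Wilson 95% intervals, which treat the genes or peaks counted as independent. No p-value was computed. Values of 1 gene that the rule names, and 1 peak window, are not reported here. Alternatives were other peak thresholds, overlap rules, distance limits and motif windows. Assignment by gene body, 2 steps of that assignment taken singly, and leaving out a replicate were also run. The overlap count and the motif search were tested on simulated sets with known answers. Python 3.11.15, numpy 2.4.6, pandas 2.3.3, statsmodels 0.14.6 and matplotlib 3.10.9 were used.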

Additional observations from a re-analysis of the deposited data

How the results depend on the processing

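Of 129 alternatives, 90 left a value within its error (within 1.5 times for gene counts) and 39 moved it. Peaks in both lists were assigned to 11 integrin, 5 laminin and 7 collagen genes. With peaks within 10000 bp of the TSS these became 3, 2 and 1, with promoter peaks 0, 1 and 0, in the higher-scoring part of each list 2 laminin and 3 collagen genes, in lists of equal length 0 laminin genes, with overlap required 3 laminin genes, and by gene body 14 collagen genes. The count of 0 laminin genes was fixed by the cut, which left 0 laminin peaks in replicate 2. With span peaks added to the assigned ones there were 8 laminin and 13 collagen genes, and without assigned peaks far from the span 7 integrin genes, both settings chosen after seeing the data. Leaving out a replicate gave 13 to 15 integrin, 5 to 11 laminin and 10 to 23 collagen genes, which are then counts of a lone list.

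The overlapping share in replicate 1 became 95.2% (integrin) and 75% (collagen, 4 peaks) in the higher-scoring part, and 57.1% for integrins within 10000 bp. In lists of equal length it became 20% (collagen) and 0% (laminin, where no replicate 2 laminin peak was left to overlap). In replicate 2 it became 69.0% (integrin) and 50% (laminin, 2 peaks) in the higher-scoring part, and 71.4% (integrin) and 36.4% (collagen, 11 peaks) in lists of equal length. The share of all peaks in lists of equal length was 60.0% in each replicate. The promoter share fell to 0% in the higher-scoring part (laminin in both lists, collagen in replicate 1) and among overlapping peaks (collagen in replicate 1, integrin in replicate 2). TGTTTAC was in 50% of replicate 2 laminin peaks in the higher-scoring part, which held 2 peaks. Among overlapping peaks the median percentile became 73.5 and 89.5 (integrin), 30.8 and 43.5 (laminin) and, in replicate 2, 55.1 (collagen). Within 100000 bp of the TSS it became 69.8 and 77.9 for integrins. Integrin peaks per 100 kb in replicate 1 were 1.20 by assigned peaks and 0.669 inside the gene body, while those of laminins were 0.392 and 0.616 and those of collagens 0.299 and 0.344. The causes were not tested.

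No paired analysis was possible because the inputs were not analysed here, and they are the only libraries that share replicate numbers with FOXK2. The total read depth was not derived from the scores, so what it limits was not measured.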

Other observations

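An integrin peak and a collagen peak lay in copies of the same DNA transposon, and these were chosen after their values were seen. The ITGAE pair, 17762 bp upstream of the TSS inside NCBP3, and a COL21A1 pair, 13527 bp downstream, were both annotated to Tigger17a. The ITGAE pair scored 6.98 (percentile 65.1) in replicate 1 and 14.4 (86.8) in replicate 2. The COL21A1 pair scored 3.58 (2.36) and 6.39 (41.1), so the same kind of repeat held peaks of unequal strength. Both held the forkhead heptamer, 1 bp and 19 bp from the replicate 2 centre. The windows are the plus strand of hg38 at chr17:3818957-3819057 and chr6:56380617-56380717, with the heptamer in capitals.
ITGAE, Tigger17a: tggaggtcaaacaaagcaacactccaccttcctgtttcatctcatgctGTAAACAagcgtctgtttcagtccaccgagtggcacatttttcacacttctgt
COL21A1, Tigger17a: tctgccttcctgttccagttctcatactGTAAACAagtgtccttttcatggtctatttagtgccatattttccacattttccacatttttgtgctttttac

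Over the 201 bp windows, a local alignment of these copies paired 135 bases, of which 106 were identical (78.5%). In the whole lists, 13 replicate 1 peaks and 33 replicate 2 peaks were annotated to Tigger17a. The heptamer was in 10 of the 13 (76.9%, Wilson 95% interval 49.7% to 91.8%) and 22 of the 33 (66.7%, 49.6% to 80.2%), beside 30.5% and 28.2% of all peaks. Tigger17a peaks had median score percentiles of 47.5 and 41.1, and 9 in each list overlapped a peak of the other.

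Some member peaks came close to the other list without overlap. A COL15A1 peak of replicate 1 and one of replicate 2 had centres 336 bp apart, and an ITGA6 pair of peaks far upstream had centres 659 bp apart. No other member peak without a partner had a peak of the other list within 1000 bp. In replicate 2, intron 1 of ITGB8 held a peak assigned to LOC101927811 at percentile 95.9 that no replicate 1 peak overlapped.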
